A study of Mus spretus with 12 samples.

Results

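The genes described here are 36 genes of the cell cycle: G1 cyclins and the transcription factor E2f1, the enzymes and helicase subunits of S phase, the mitotic cyclins, kinases and regulators, and proteins of chromosomes and the spindle. They were chosen by name from what they do in dividing cells, as the spots of the arrays that carry one of these 36 gene symbols, out of 37074 gene names on the array. The 36 genes were read by 62 of 56605 probes. Of the 36, 30 were tested, among 18678 tested genes. The remaining 6 (Cdk1, Ccne2, Bub1, Bub1b, Kif11 and Tpx2) had no probe well above background on all arrays of any group.

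The RNA was total liver RNA from old male Mus spretus (strain SPRET/EiJ, wild-derived and inbred), aged 20 months when feeding began and 22 months when it ended, 60 days later. In the control group, corn oil was added to a Teklad diet. In the DDE group the diet held p,p'-DDE, a long-lived metabolite of DDT, at 450 mg/kg. In the PXDDE group the same contaminated diet was combined with must of Pedro Ximenez grapes in the water, with polyphenols at 85 mg/L and with 31 g/L of glucose and fructose in equal parts. No group received must without p,p'-DDE, and no group received the sugar without the polyphenols. Each group has 4 one-colour arrays. The labels do not say whether RNA of several mice was pooled, and the p-values therefore reflect array-to-array spread alone, part or all of which could be technical.

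Most hepatocytes of an adult liver are outside the cell cycle, and return to it after injury or loss of tissue or under mitogens. On entry, D-type cyclins and then cyclin E release E2F factors from the retinoblastoma protein, and E2F factors switch on the genes of S phase. Foxm1 and the B-Myb and MuvB complex later switch on the genes of G2 and mitosis, so transcripts of mitotic genes are usually scarce in resting tissue. Whole liver RNA also holds RNA of dividing blood and immune cells, and a lower signal from fewer cells of a type cannot be told apart from less RNA per cell.

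The probes are 60 bases long, and the files give their sequence and mm9 coordinates; only their first 30 bases are shown. The first set below reads the 4 members with the largest falls between DDE and PXDDE, all in lower case, 5′ to 3′ on the strand of the transcript.
Rrm2 (chr12:25398824-25398883, plus strand): ctagcttcctcatgaactgacataaccctg
Ccna2 (chr3:36463978-36464037, minus strand): gctgacactctttccgaatcttaccctgtt
Ccnb1 (chr13:101548722-101548781, minus strand): gccacctggaaaagaatcctgtctcatttg
Nusap1 (chr2:119475072-119475131, plus strand): agggaggctggaagaccacatttttgttca
The second pair is shown because 2 probes of 1 gene, Top2a, gave different results between the groups.
Top2a, brighter probe (chr11:98854651-98854710, minus strand): ggtcatatagaactggttagttctagtaca
Top2a, dimmer probe (chr11:98855522-98855581, minus strand): ttcttctgatagctctgactctgattttga
A last sequence is the stretch, in capitals, that 2 overlapping Ccnb1 probes share (chr13:101548722-101548747, minus strand): TTTAATTTATACATCTGATATCAAGT. It ends the probe of Ccnb1 used here, which was well above background on all 12 arrays, and opens another probe, which was well above background on 0 of 12. Of the 4 Ccnb1 probes only that 1 was kept. The probes follow laboratory mouse sequence, and neither their mismatches to Mus spretus nor the exons or untranslated regions they lie in were examined here.

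All levels below are log2 of the processed signal relative to the 75th percentile of the array, which lay between 492 and 570 in control, 551 and 662 in DDE and 692 and 710 in PXDDE. Levels of different genes are not compared, since each probe binds differently. Arrays of a group differed by a median SD of 0.12 on the log2 scale over the tested members and 0.11 over all tested genes, and the number of arrays limits the precision. All 9 hepatocyte markers on the array were well above background on every array. Hepatocyte RNA was thus present in every sample, but this cannot show that the RNA was of liver alone. Marker genes of other organs differed between the groups: the mean log2 level of 8 adrenal cortex markers lay between 0.87 and 0.99 in control, -2.31 and -2.22 in DDE and 1.5 and 1.6 in PXDDE, and that of 10 pancreatic acinar markers between 4.04 and 4.14, 3.74 and 3.86, and 6.05 and 6.13. In these and all later marker means, dimmer values were raised to the array's lowest signal well above background. Means that hold dim markers are thus upper limits. In DDE 2 of the 8 adrenal cortex markers were well above background on no array. The mean of 8 stratified epithelium markers was -1.79 in control, -3.71 in DDE and -3.56 in PXDDE. Of these markers 1, 4 and 5 were well above background on no array of the group. The mean of 8 skeletal muscle markers was 4.28, 3.01 and 2.61. The part of other tissues in the results below was not tested.

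Genes were tested with limma in 1 fit over the 12 arrays, and called at a Benjamini-Hochberg adjusted p under 0.05 over all 18678 genes; rose and fell refer to called genes. Between DDE and PXDDE, 15 of the 30 tested members fell (50%) and 0 rose, where 29.7% of all tested genes fell and 20.2% rose. The median log2 change was -0.35 over the tested members and -0.04 over all genes. With p,p'-DDE alone, against control, 7 rose and 1 fell, or 23.3% and 3.33%, where 24.0% and 26.3% of all genes did: the share that rose was near that of all genes and the share that fell was lower. With each array centred on its median instead, 22 rose (73.3%, against 48.3% of all genes under that centring) and 0 fell (against 11.1%). With quantile normalisation 13 rose (43.3%, against 25.6%), and with the deposited values 11 rose (36.7%, against 23.9%). The reading of this comparison therefore depends on the processing. The median log2 change in that comparison was 0.13 over the tested members and -0.02 over all genes.

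In PXDDE against control, 3 members rose (10%, against 31.6% of all genes) and 14 fell (46.7%, against 39.3%), with a median of -0.23 over the tested members and -0.06 over all genes. This last comparison depends on the scaling. With each array centred on its median, 13 rose (43.3%, against 55.2% of all genes) and 2 fell (6.67%, against 20.4%), and the members' median turned to 0.14. In PXDDE against DDE that centring gave 12 falls (40%, against 17.6% of all genes) and 1 rise. Under that centring the median of all genes moved to 0.21, 0.10 and 0.32 in DDE against control, PXDDE against DDE and PXDDE against control. Relative to the median of all genes, the members' median was -0.18 in PXDDE against control, -0.31 in PXDDE against DDE and 0.16 in DDE against control. These differences are the same under both scalings by construction, since the scalings differ only by a constant per array. They are therefore no check on the scaling. The comparisons share arrays, so they are not independent of each other.

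**Figure D1:**
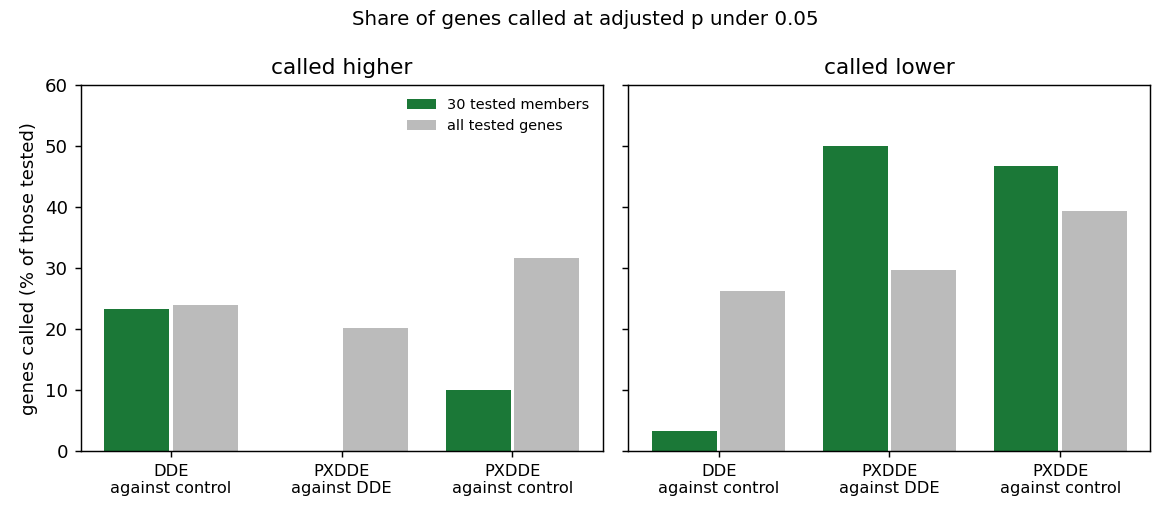
Share of genes called at an adjusted p under 0.05 (vertical axis, % of those tested) as higher (left) or lower (right) in each comparison, for the 30 tested cell cycle members (green bars) and all 18678 tested genes (grey bars). In PXDDE against DDE 50% of the members were called lower, against 29.7% of all genes, and none was called higher.

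Of the 30 tested members, 26 were well above background on all 12 arrays. The other 4 (Top2a, Aurkb, Cdca8 and Nusap1) were so on all arrays of some groups only, and could pass the filter through those groups. The counts above are therefore counts over the members that passed, not over the 36. Among the 26 alone, 14 fell (53.8%) and 0 rose in PXDDE against DDE. Of all genes that passed on all 12 arrays, 30.9% fell and 21.5% rose there. In DDE against control 7 of the 26 rose (26.9%, against 25.7% of those genes) and 1 fell (3.85%, against 26.4%). The share that rose was thus near that of all genes under the same filter. In PXDDE against control 3 rose and 12 fell (46.2%), where 33.2% of those genes rose and 39.6% fell. In 13 of 30 members no PXDDE array reached the lowest DDE array (43.3%, against 26.4% of all genes), and in 0 was the opposite seen (against 18.3%). The 13 include Nusap1, which passed the filter through DDE alone. In DDE against control the arrays did not overlap in 7 members that were higher and 1 that was lower (22.3% and 24.1% of all genes), and in PXDDE against control in 2 and 11 (28.9% and 36.3%). A total of 22 members were called in at least 1 comparison. The 8 called in none were Mki67, Mcm2, Mcm5, Mcm7, Rrm1, Aurkb, Cdca3 and Cdca8.

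**Figure D2:**
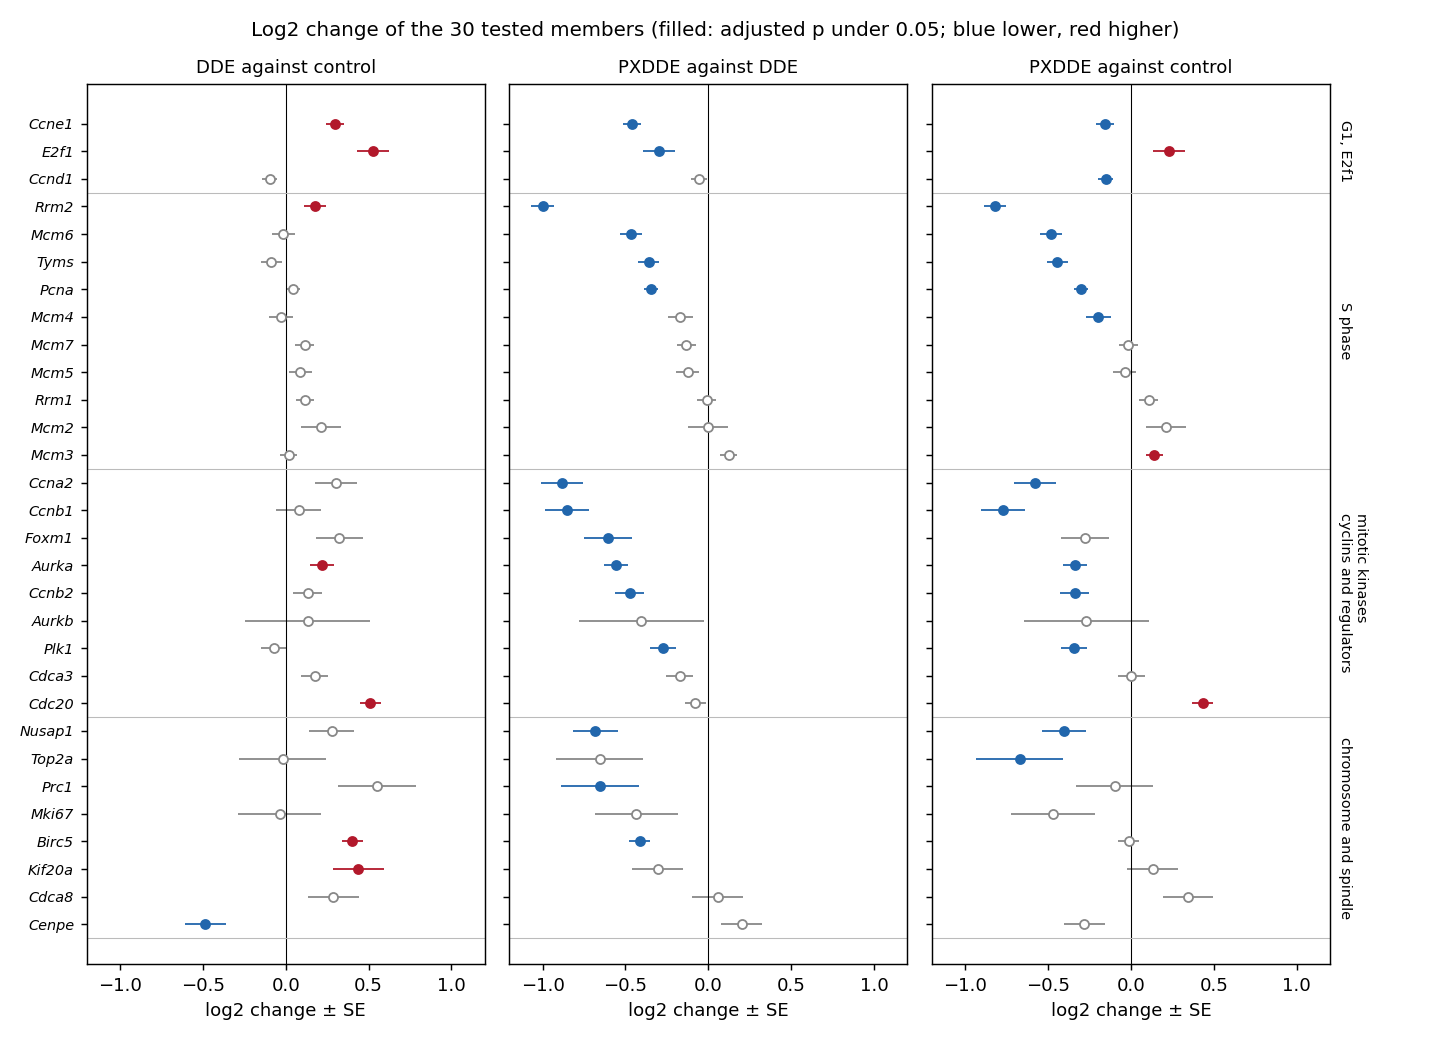
Log2 change (horizontal axis, ± SE of the fit) of each of the 30 tested members in the 3 comparisons, ordered by role and, within a role, by the change in PXDDE against DDE. Filled points were called at an adjusted p under 0.05, blue for lower and red for higher; in the middle panel 15 points are blue, from -0.27 for Plk1 to -1.0 for Rrm2, and none is red.

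Among the G1 genes, Ccne1 and E2f1 were highest in DDE, and Ccnd1 moved little. Ccne1 encodes cyclin E1, which with Cdk2 drives the step from G1 into S phase. Its log2 level was 1.91, 1.80, 1.81 and 1.83 in control, 2.22, 2.09, 2.11 and 2.12 in DDE, and 1.65, 1.63, 1.61 and 1.81 in PXDDE. Every DDE array lay above every other array, and 1 PXDDE array reached into the control range. Ccne1 rose by 0.30 ± 0.05 (log2 change ± SE, 1.23-fold, adjusted p = 0.000783) in DDE against control and fell by 0.46 ± 0.05 (1.37-fold, adjusted p = 3.56e-05) in PXDDE against DDE. In PXDDE against control it fell by 0.16 ± 0.05 (adjusted p = 0.0197). That last call was lost without control replicate 1, PXDDE replicate 2 or PXDDE replicate 3 (adjusted p = 0.0544 to 0.0568), and under median centring the difference turned to 0.22.

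E2f1 is the founding member of the E2F factors that switch on S-phase genes. On the arrays it stood at -1.87, -1.62, -1.99 and -1.70 in control, -1.10, -1.34, -1.37 and -1.27 in DDE, and -1.66, -1.44, -1.71 and -1.46 in PXDDE. All DDE arrays lay above all others, whereas control and PXDDE overlapped. E2f1 rose by 0.53 ± 0.10 (1.44-fold, adjusted p = 0.000898) in DDE against control, and fell by 0.30 ± 0.10 (1.23-fold, adjusted p = 0.0244) in PXDDE against DDE. The fall was no longer called without DDE replicate 1 (adjusted p = 0.0652), PXDDE replicate 1 (0.0614) or PXDDE replicate 3 (0.07), nor under median centring (-0.15, adjusted p = 0.24). In PXDDE against control the rise of 0.23 ± 0.10 just passed (adjusted p = 0.0496), was lost without any 1 of 7 arrays (adjusted p = 0.0547 to 0.146; control replicates 1 and 3, DDE replicates 2, 3 and 4, and PXDDE replicates 2 and 4), and was reversed on 1 of 3 slides that hold both groups. With normexp it was 0.10 (adjusted p = 0.228).

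Ccnd1 encodes cyclin D1, the cyclin through which mitogens start the cycle in hepatocytes. The log2 levels were 3.19, 3.20, 3.35 and 3.31 in control, 3.17, 3.18, 3.11 and 3.20 in DDE, and 3.08, 3.15, 3.10 and 3.10 in PXDDE. The 12 arrays spanned a narrow range, with DDE overlapping both other groups. It fell by 0.15 ± 0.05 (1.11-fold, adjusted p = 0.0102) in PXDDE against control; the differences of -0.10 and -0.06 in DDE against control and PXDDE against DDE were not called (adjusted p = 0.0975 and 0.332). Under median centring the PXDDE and control difference turned to 0.22. Ccne2, which encodes cyclin E2, was well above background on 0 of 12 arrays.

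In S phase, the members split in PXDDE: Rrm2, Mcm6, Tyms and Pcna fell against DDE, while Rrm1 and the other 5 helicase subunits were not called there. Rrm2 encodes the small subunit of ribonucleotide reductase, which makes the DNA precursors and is made and destroyed with the cycle. It was measured at -0.69, -0.69, -0.62 and -0.75 in control, -0.57, -0.41, -0.49 and -0.56 in DDE, and -1.34, -1.59, -1.64 and -1.46 in PXDDE. The 3 groups did not overlap, and PXDDE lay far below both others. Rrm2 fell by 1.00 ± 0.07 in PXDDE against DDE (2.00-fold, adjusted p = 4.77e-07) and by 0.82 ± 0.07 in PXDDE against control (1.77-fold, adjusted p = 6.58e-07). Within the 3 slides that hold both groups, the PXDDE and DDE difference was -1.16 to -0.89. The rise of 0.18 ± 0.07 in DDE against control just passed (adjusted p = 0.0454), and was lost without control replicate 1, 2 or 4, DDE replicate 2, 3 or 4, or PXDDE replicate 2 or 4 (adjusted p = 0.05 to 0.12). Rrm1, the large subunit of the same enzyme, differed by -0.01 ± 0.06 in PXDDE against DDE (adjusted p = 0.901).

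Pcna is the sliding clamp that holds DNA polymerase on the template. Its log2 level was 3.28, 3.23, 3.25 and 3.30 in control, 3.34, 3.27, 3.34 and 3.29 in DDE, and 2.96, 3.01, 2.87 and 3.02 in PXDDE. Control and DDE overlapped, and all 4 PXDDE arrays lay below both. It fell by 0.34 ± 0.04 in PXDDE against DDE (1.27-fold, adjusted p = 5.59e-05) and by 0.30 ± 0.04 against control (adjusted p = 6.06e-05), although the latter turned to 0.07 under median centring. Tyms, thymidylate synthase, fell by 0.36 ± 0.06 in PXDDE against DDE (adjusted p = 0.000721), and by 0.30 and 0.65 on its 2 other kept probes.

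The Mcm2 to Mcm7 proteins form the helicase that opens DNA for replication. Mcm6 fell by 0.47 ± 0.07 in PXDDE against DDE (1.38-fold, adjusted p = 0.000154), without overlap between the groups. Mcm2 stood at -0.85, -0.89, -0.72 and -1.09 in control, -0.92, -0.60, -0.51 and -0.65 in DDE, and -0.53, -0.79, -0.47 and -0.91 in PXDDE. These 3 groups overlapped, and the difference between PXDDE and DDE was 0.00 ± 0.12 (adjusted p = 0.991). Mcm4, Mcm5 and Mcm7 differed by -0.17 to -0.12 in PXDDE against DDE and were not called; Mcm4 passed without DDE replicate 1 (-0.23, adjusted p = 0.0189) or PXDDE replicate 1 (-0.22, adjusted p = 0.0276). Mcm3 was the member of this role with the opposite sign: it differed by 0.12 ± 0.05 in PXDDE against DDE (adjusted p = 0.067, and 0.00656 without DDE replicate 1) and rose by 0.14 ± 0.05 in PXDDE against control (adjusted p = 0.0283, with 0.053 to 0.0767 without control replicate 2 or 4 or PXDDE replicate 2 or 4). That rise was 0.073 with quantile normalisation (adjusted p = 0.226), and the PXDDE and DDE difference was called under median centring (0.27, adjusted p = 0.0033). Its 4 probes had the same sign in PXDDE against DDE, from 0.12 to 0.35. Against control, Mcm4 fell by 0.20 in PXDDE (adjusted p = 0.0322), a call lost without any 1 of 6 arrays (control replicates 1, 2 and 3 and PXDDE replicates 2, 3 and 4; adjusted p = 0.057 to 0.0902) and turned to 0.18 under median centring.

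**Figure D3:**
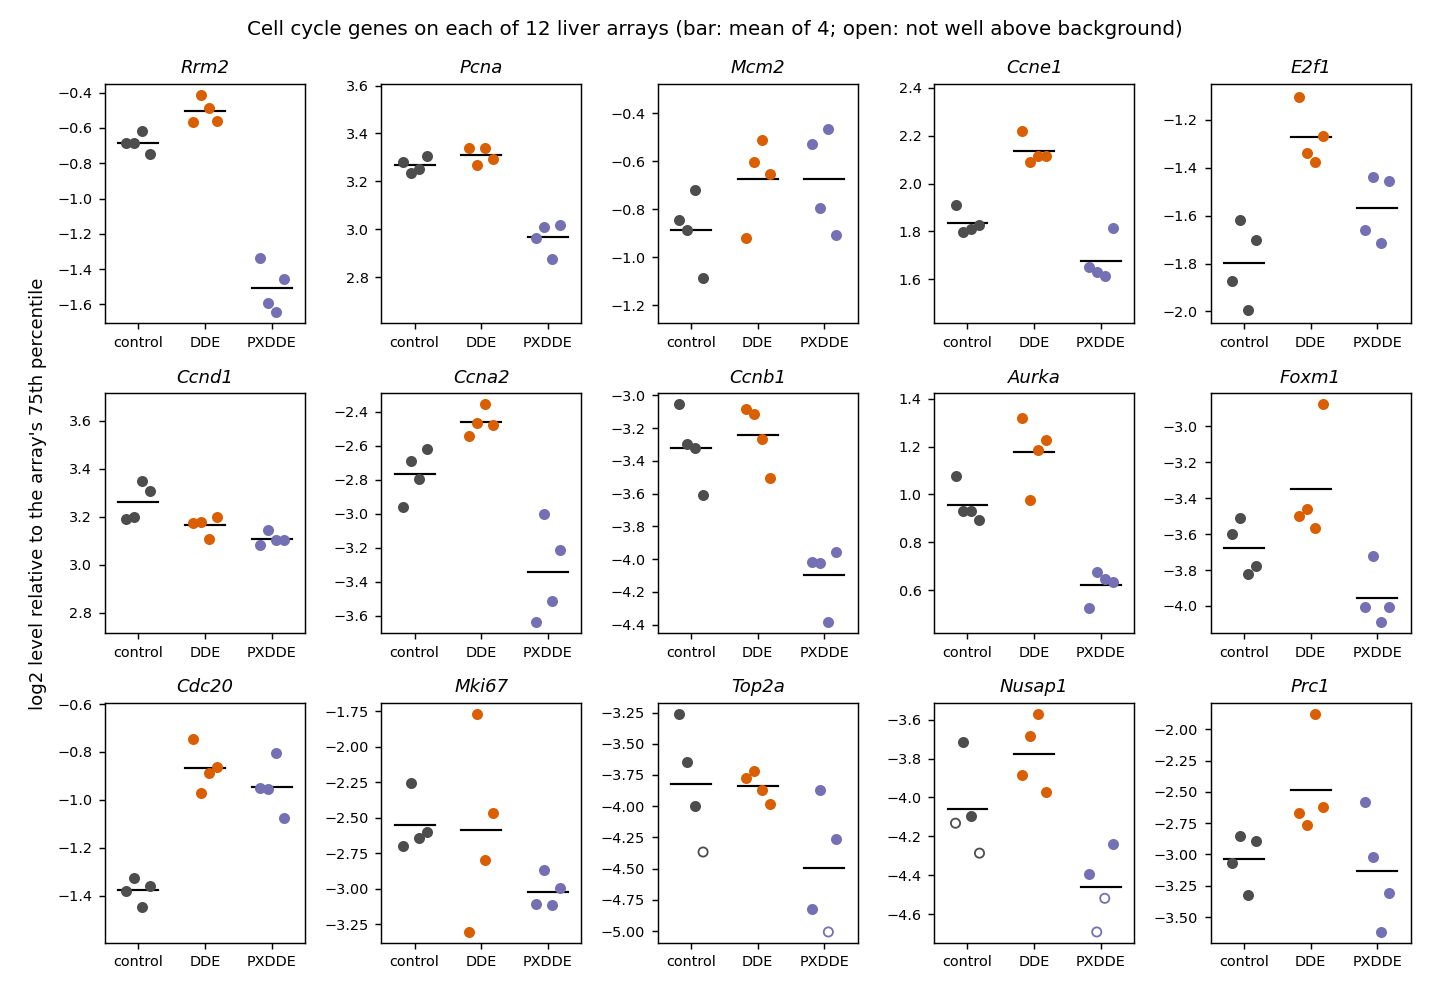
Log2 level relative to the array's 75th percentile (vertical axis, own range in each panel) of 15 cell cycle genes on each of 4 control (grey), 4 DDE (orange) and 4 PXDDE (violet) arrays, with the mean of each group as a bar; open points were not well above background. In the panels of Rrm2, Pcna, Ccna2, Ccnb1 and Aurka the 4 PXDDE points lie below all 8 others.

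Of the mitotic cyclins, kinases and regulators, 6 of 9 tested fell in PXDDE against DDE and none rose, where 29.7% of all genes fell. Ccna2 encodes cyclin A2, active in S phase and G2. On the arrays it stood at -2.96, -2.69, -2.79 and -2.62 in control, -2.54, -2.47, -2.36 and -2.47 in DDE, and -3.64, -3.00, -3.52 and -3.22 in PXDDE. The 3 groups did not overlap, with DDE highest and PXDDE lowest. Ccna2 fell by 0.88 ± 0.13 in PXDDE against DDE (1.84-fold, adjusted p = 0.000156) and by 0.58 ± 0.13 against control (1.49-fold, adjusted p = 0.00151), although the latter was not called under median centring (-0.20, adjusted p = 0.18). Its other kept probe was well above background on all control and DDE arrays but on 1 of 4 PXDDE arrays, and is given no fold. In DDE against control Ccna2 differed by 0.31 ± 0.13 (adjusted p = 0.0631) and passed in 10 of 26 alternatives. Among these were the fits without PXDDE replicate 1 or 2 (adjusted p = 0.0373 and 0.026), with quantile normalisation (0.48, adjusted p = 0.0104) and with median centring (0.54, adjusted p = 0.00413).

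Ccnb1 and Ccnb2 encode the B-type cyclins that with Cdk1 start mitosis. The log2 level of Ccnb1 was -3.06, -3.30, -3.32 and -3.61 in control, -3.08, -3.12, -3.27 and -3.51 in DDE, and -4.02, -4.02, -4.38 and -3.95 in PXDDE. Control and DDE overlapped, and every PXDDE array lay below them. Ccnb1 fell by 0.85 ± 0.13 in PXDDE against DDE (1.80-fold, adjusted p = 0.000306) and by 0.77 ± 0.13 against control (1.71-fold, adjusted p = 0.000276). Ccnb2 fell by 0.47 ± 0.09 in PXDDE against DDE (1.39-fold, adjusted p = 0.000979). Their partner Cdk1 was not tested: its 1 probe was well above background on 0 control, 3 DDE and 1 PXDDE arrays. Its signal there was -4.52 to -4.44 in control, -4.82 to -3.87 in DDE and -5.61 to -4.79 in PXDDE.

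Aurka is the kinase of the spindle poles. The log2 levels were 1.08, 0.93, 0.93 and 0.89 in control, 1.32, 0.98, 1.19 and 1.23 in DDE, and 0.53, 0.68, 0.65 and 0.63 in PXDDE. The PXDDE arrays lay below all others, and control and DDE overlapped through DDE replicate 2. Aurka fell by 0.56 ± 0.07 in PXDDE against DDE (1.47-fold, adjusted p = 7.51e-05). Its rise of 0.22 ± 0.07 in DDE against control (adjusted p = 0.0244) was lost without control replicate 2, 3 or 4 or DDE replicate 1, 3 or 4 (adjusted p = 0.0508 to 0.065). Its fall of 0.34 ± 0.07 in PXDDE against control (adjusted p = 0.0013) turned to 0.04 under median centring. Plk1, a kinase of mitotic entry and spindle assembly, fell by 0.27 ± 0.08 in PXDDE against DDE (adjusted p = 0.0144), a call lost under median centring (-0.13, adjusted p = 0.222), with the deposited values (-0.13, 0.239) and with normexp and quantile normalisation (-0.14, 0.0687). Aurkb, the kinase of the chromosomal passenger complex, was near background and was not called.

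Foxm1 is the factor that switches on G2 and mitotic genes. It was measured at -3.60, -3.51, -3.82 and -3.78 in control, -3.50, -3.46, -3.57 and -2.88 in DDE, and -4.01, -3.72, -4.09 and -4.01 in PXDDE. DDE replicate 4 stood above the rest of its group, and the PXDDE arrays lay below all DDE arrays. Foxm1 fell by 0.60 ± 0.14 in PXDDE against DDE (1.52-fold, adjusted p = 0.00474). The difference of -0.28 ± 0.14 in PXDDE against control was not called (adjusted p = 0.103), but passed without DDE replicate 4 (adjusted p = 0.0179).

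Cdc20 activates the ubiquitin ligase that ends metaphase, and it was higher than control in both groups given p,p'-DDE. Its log2 level was -1.38, -1.33, -1.45 and -1.36 in control, -0.75, -0.97, -0.89 and -0.86 in DDE, and -0.95, -0.95, -0.80 and -1.08 in PXDDE. DDE and PXDDE overlapped, and both lay above all control arrays. Cdc20 rose by 0.51 ± 0.06 in DDE against control (1.42-fold, adjusted p = 6.16e-05) and by 0.43 ± 0.06 in PXDDE against control (1.35-fold, adjusted p = 8.41e-05), and differed by -0.08 ± 0.06 between PXDDE and DDE (adjusted p = 0.335). Its second probe gave 0.67, 0.42 and -0.25. Cdca3, a regulator of mitotic entry, differed by -0.17 ± 0.08 in PXDDE against DDE (adjusted p = 0.103, and 0.0449 without PXDDE replicate 4). The checkpoint kinase gene Bub1 and its relative Bub1b were well above background on 0 of 12 arrays.

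Of 8 tested genes of chromosomes and the spindle, 3 fell in PXDDE against DDE (against 29.7% of all genes): Nusap1, Prc1 and Birc5. Nusap1 binds spindle microtubules around chromosomes. On the arrays it stood at -4.13, -3.71, -4.10 and -4.29 in control, -3.89, -3.69, -3.57 and -3.97 in DDE, and -4.39, -4.69, -4.52 and -4.24 in PXDDE. It was well above background on all 4 DDE arrays and on 2 arrays of each other group, and DDE and PXDDE did not overlap. It passed the filter through DDE alone, the group where it is high, so that its difference from the other groups was in part set by the filter. With the dim arrays at their measured signal, Nusap1 fell by 0.68 ± 0.13 in PXDDE against DDE (adjusted p = 0.00148), and no exact fold is given. The fall of 0.40 ± 0.13 against control (adjusted p = 0.0185) was lost without control replicate 2 or PXDDE replicate 2 (adjusted p = 0.0523 and 0.0578), and turned to 0.02 with normexp and quantile normalisation.

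Birc5, or survivin, belongs to the chromosomal passenger complex. It rose by 0.40 ± 0.06 in DDE against control (1.32-fold, adjusted p = 0.000332) and fell by 0.42 ± 0.06 in PXDDE against DDE (1.33-fold, adjusted p = 0.000259), with no overlap in either comparison and the same signs on its other kept probe (0.51 and -0.37). Its level in PXDDE differed from control by -0.01 ± 0.06 (adjusted p = 0.864), and by 0.36 under median centring, where it was called higher. Cdca8, or borealin, of the same complex was well above background on all PXDDE arrays, 2 DDE arrays and 0 control arrays, and was not called.

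Prc1 bundles the microtubules of the central spindle. The log2 levels were -3.07, -2.86, -3.32 and -2.90 in control, -2.67, -2.76, -1.88 and -2.62 in DDE, and -2.58, -3.02, -3.62 and -3.31 in PXDDE. DDE replicate 3 stood above all other arrays, and DDE and PXDDE overlapped. Every DDE array lay above every control array, and Prc1 differed by 0.55 ± 0.23 in DDE against control (adjusted p = 0.0697). That difference was called in 6 of 26 alternatives. The fall of 0.65 ± 0.23 in PXDDE against DDE (1.57-fold, adjusted p = 0.0374) was not called without DDE replicate 3 (-0.45, adjusted p = 0.0996), DDE replicate 4, or PXDDE replicate 2, 3 or 4 (adjusted p = 0.0516 to 0.105), and ranged from -1.74 to 0.18 within slides. It was also lost with quantile normalisation (-0.54, adjusted p = 0.0753), median centring (-0.51, 0.0838), and normexp with quantile normalisation (-0.29, 0.0711).

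Mki67, whose protein Ki-67 coats mitotic chromosomes and is the common stain for dividing cells, was not called. It was measured at -2.70, -2.25, -2.65 and -2.60 in control, -3.30, -1.77, -2.80 and -2.47 in DDE, and -3.10, -2.87, -3.11 and -2.99 in PXDDE. The DDE arrays spread widest and held both the highest and the lowest value of the 12, while the PXDDE arrays lay below all control arrays. Mki67 differed by -0.43 ± 0.25 in PXDDE against DDE (adjusted p = 0.173), and by -0.67 with an adjusted p of 0.0191 without DDE replicate 1. In PXDDE against control it differed by -0.47 ± 0.25 (adjusted p = 0.114, and 0.0443 and 0.0232 without DDE replicates 1 and 2). With normexp both differences passed (-0.37 and -0.40, adjusted p = 0.023 and 0.0115).

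Top2a untangles DNA strands before chromosomes part. The log2 level of its brighter probe was -3.26, -3.64, -4.00 and -4.37 in control, -3.78, -3.72, -3.87 and -3.98 in DDE, and -4.83, -3.87, -5.01 and -4.26 in PXDDE. The groups overlapped, and 1 control and 1 PXDDE array were not well above background. The probe passed the filter through DDE alone, so its differences from DDE were in part set by the filter. Neither control nor PXDDE would have passed on its own. With the dim arrays at their measured signal, that probe fell by 0.67 ± 0.26 in PXDDE against control (adjusted p = 0.038). The call was lost in 13 of 25 alternatives, among them without control replicate 1 or 2 or PXDDE replicate 1 or 3 (adjusted p = 0.0859 to 0.113). The difference had the opposite sign on 1 of 3 slides. With quantile normalisation it was -0.31 (adjusted p = 0.313). The dimmer probe, whose first bases are shown above, differed by 0.10 in the same comparison (adjusted p = 0.677) and by -0.01 in PXDDE against DDE, where the brighter probe differed by -0.65 (adjusted p = 0.0576, and 0.0154 to 0.0415 without control replicate 1 or 4 or PXDDE replicate 2).

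The motor protein genes did not follow 1 direction. Cenpe, a motor of the kinetochore, was the 1 member that fell in DDE against control, by 0.49 ± 0.12 (1.40-fold, adjusted p = 0.00677), with every DDE array below every control array; under median centring the difference was -0.25 (adjusted p = 0.126). It differed by 0.20 ± 0.12 in PXDDE against DDE (adjusted p = 0.195, and 0.0122 without PXDDE replicate 3). Kif20a, a motor of cytokinesis, rose by 0.44 ± 0.15 in DDE against control (adjusted p = 0.0335), with overlapping groups and a call lost without control replicate 3 or 4 or DDE replicate 2, 3 or 4 (adjusted p = 0.0653 to 0.0839) and with normexp (0.15, adjusted p = 0.112). Kif11, the motor that separates spindle poles, and Tpx2, a spindle assembly factor that activates Aurka, were well above background on 0 of 12 arrays.

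**Figure D4:**
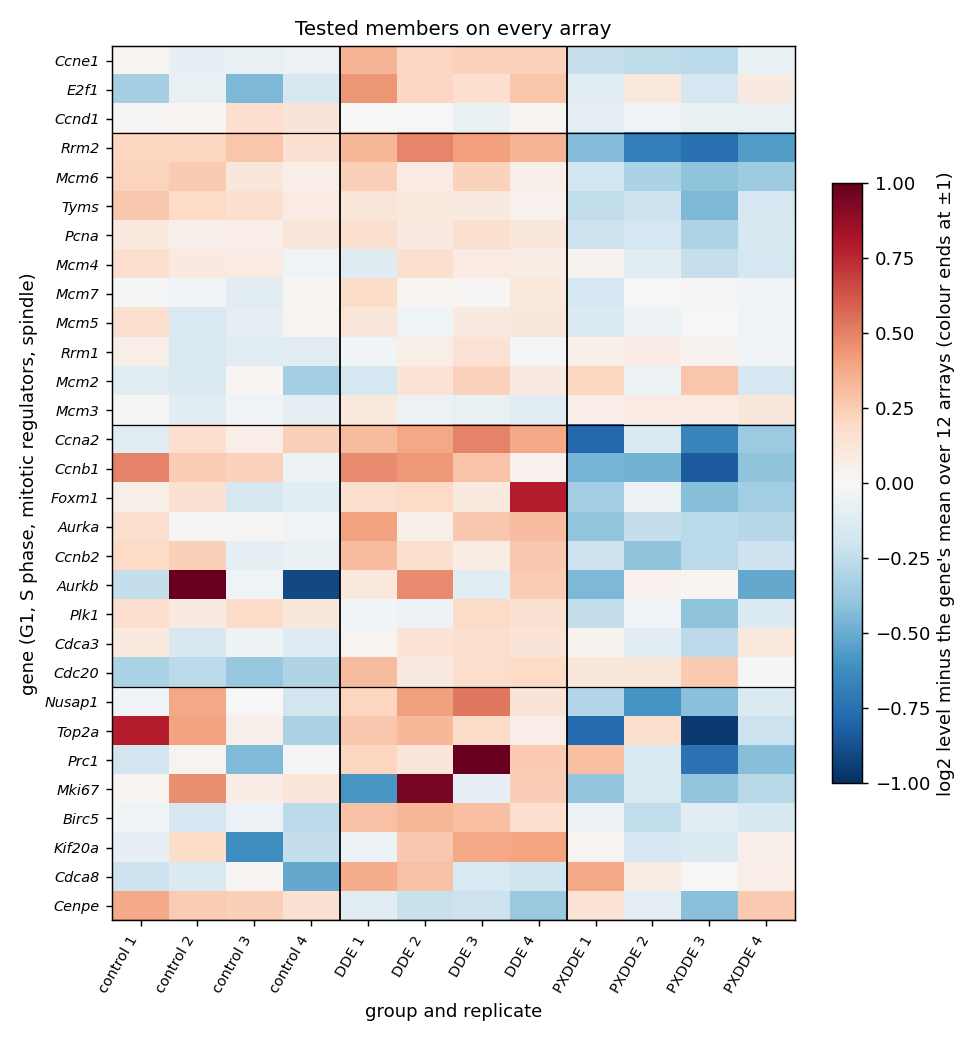
Log2 level of the 30 tested members (rows, grouped by role) on the 12 arrays (columns), minus each gene's mean over the 12 arrays; red is above and blue below that mean. The PXDDE columns are blue for Rrm2, Mcm6, Tyms, Pcna and most mitotic genes, while the row of Cdc20 is bluest in control, and Prc1, Foxm1, Mki67, Aurkb and Top2a show single arrays that stand out.

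The arrays lay on 5 slides, each its own scan pass, and 3 slides held both a DDE and a PXDDE array. Between those arrays 24, 24 and 23 of the 30 tested members were lower in PXDDE, or 80%, 80% and 76.7%, against 52.4%, 55.5% and 54.6% of all tested genes. Top2a and Nusap1, which passed the filter through DDE alone, are counted as lower on all 3 slides, and their part in these counts was in part set by the filter. The median differences were -0.29, -0.42 and -0.32 over the members and -0.02, -0.05 and -0.04 over all genes. With the slide as a block, 15 fell (50%, against 28.8% of all genes) and 0 rose (against 20.5%).

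Further genes of the same pathways were taken from 6 fixed lists that share no gene with the 36. In the replication list (46 tested), 21 fell and 5 rose in PXDDE against DDE, 14 fell and 6 rose in DDE against control, and 24 fell and 7 rose in PXDDE against control. The falls are 45.7%, 30.4% and 52.2% of the list, against 29.7%, 26.3% and 39.3% of all genes, so that of DDE against control is near the background. The list medians were -0.19, -0.02 and -0.24. Mcm10, which loads the polymerase at the origin, fell by 0.76 ± 0.04 (adjusted p = 3.68e-08) in DDE against control and by a further 0.50 ± 0.04 (adjusted p = 1.12e-06) in PXDDE against DDE. Gmnn, which blocks a second firing of origins, fell by 0.58 in PXDDE against DDE (adjusted p = 3.03e-05). Pold2, a subunit of a replicative polymerase, rose by 0.39 ± 0.04 (adjusted p = 1.11e-05). Under median centring the PXDDE against DDE count was 11 lower and 11 higher of 46, where 17.6% of all genes fell and 34.7% rose. In DDE against control 22 of 46 rose and 3 fell under it, where 48.3% of all genes rose and 11.1% fell.

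Of the mitotic genes outside the 36, many also fell in PXDDE. Of 61 genes of the mitosis list on the array, 36 passed the filter and were tested. Some of these may have passed through DDE alone, which would in part set their falls, and this was not examined. Of the 36 tested, 19 fell (52.8%, against 29.7% of all genes) and 4 rose (11.1%, against 20.2%) in PXDDE against DDE, with a median of -0.40. Under the 26 alternative settings the count of falls stayed within 1.5 times of 19. In DDE against control 8 rose (22.2%, against 24% of all genes) and 3 fell (8.33%, against 26.3%). In PXDDE against control 6 rose (16.7%, against 31.6%) and 20 fell (55.6%, against 39.3%). Under median centring 21 rose and 0 fell in DDE against control, where 48.3% of all genes rose and 11.1% fell. In PXDDE against control 13 rose and 11 fell under it, where 55.2% of all genes rose and 20.4% fell. Stmn1, which destabilises microtubules, stood at 2.40, 2.16, 2.13 and 2.20 in control, 2.39, 2.23, 2.31 and 2.32 in DDE, and 1.22 to 1.35 in PXDDE. It fell by 1.03 ± 0.06 in PXDDE against DDE (2.05-fold, adjusted p = 2.12e-07). Nuf2, of the kinetochore, fell by 1.01 ± 0.10 (adjusted p = 1.1e-05). Ncapg, a condensin subunit, rose by 0.57 ± 0.08 in DDE against control (adjusted p = 8.81e-05) and fell by 0.78 ± 0.08 in PXDDE against DDE (adjusted p = 8.21e-06). Tuba1b, a tubulin of many cell types, rose by 0.35 ± 0.04 (adjusted p = 1.97e-05).

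Of 17 E2F, retinoblastoma and MuvB factors, 3 fell and 1 rose in PXDDE against DDE, and 6 rose and 2 fell in DDE against control. The 3 falls are 17.6% of the list, against 29.7% of all genes, and the 6 rises 35.3%, against 24.0%. Under median centring 2 fell and 5 rose in PXDDE against DDE, where 17.6% of all genes fell and 34.7% rose. In DDE against control 12 rose and 0 fell under it, where 48.3% of all genes rose and 11.1% fell. E2f8, a repressor of the family that is made in S phase, fell by 0.69 ± 0.09 in PXDDE against DDE (adjusted p = 0.00012), and E2f3 rose by 0.64 ± 0.11 in DDE against control (adjusted p = 0.000777). E2f7, the other such repressor, fell by 0.41 in PXDDE against DDE on its brightest probe, but differed by 0.37 with the opposite sign as the mean of its probes. Of 13 other cyclins, CDKs and their regulators, 3 rose and 5 fell in PXDDE against DDE, and 3 rose and 2 fell in DDE against control. The rises are 23.1% of that list in both comparisons, near the 20.2% and 24.0% of all genes. The falls are 38.5% and 15.4%, against 29.7% and 26.3%. Under median centring 4 rose and 2 fell in PXDDE against DDE, where 34.7% of all genes rose and 17.6% fell. In DDE against control 8 rose and 1 fell under it, where 48.3% of all genes rose and 11.1% fell. Wee1, the kinase that holds back Cdk1, rose by 0.62 ± 0.04 in DDE against control (adjusted p = 5.03e-07). Ccnd2, a second D-type cyclin, fell by 0.51 ± 0.08 in DDE against control (adjusted p = 0.000341) and rose by 0.49 ± 0.08 in PXDDE against DDE (adjusted p = 0.000456).

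CDK inhibitors, which stop the cycle, also fell in PXDDE: 6 of 8 fell and 1 rose against DDE, where in DDE against control 3 fell and 1 rose. The falls are 75% and 37.5% of the list, against 29.7% and 26.3% of all genes. Cdkn1a, the p53 target p21, stood at 0.57, 0.46, 0.47 and 0.80 in control, 0.71, 0.31, 0.41 and 0.50 in DDE, and -0.56, -0.22, -0.45 and -0.42 in PXDDE. Control and DDE overlapped and PXDDE lay below both; Cdkn1a fell by 0.89 ± 0.10 (1.86-fold, adjusted p = 3.35e-05) in PXDDE against DDE and differed by -0.09 ± 0.10 (adjusted p = 0.483) in DDE against control. Cdkn2a, a gene known to rise with age in many tissues, fell by 1.42 ± 0.08 (2.67-fold, adjusted p = 8.36e-08) in PXDDE against DDE. Cdkn1c went the opposite way: it stood at 0.22, 0.22, 0.28 and 0.13 in control, -1.04, -0.83, -0.89 and -0.87 in DDE, and 0.66, 0.61, 0.65 and 0.61 in PXDDE. The groups did not overlap, and Cdkn1c fell by 1.12 ± 0.05 (2.17-fold, adjusted p = 1.83e-08) in DDE against control and rose by 1.54 ± 0.05 (2.90-fold, adjusted p = 1.11e-09) in PXDDE against DDE.

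Among 17 tested liver growth signals, 7 rose and 5 fell in DDE against control, and 5 rose and 6 fell in PXDDE against DDE. The falls, 29.4% and 35.3% of the list, are near the 26.3% and 29.7% of all genes; the rises are 41.2% and 29.4%, against 24.0% and 20.2%. Gadd45b, which the receptor CAR induces as liver cells start to grow, stood at -0.31, -0.30, -0.31 and -0.40 in control, 1.05, 1.14, 1.11 and 1.07 in DDE, and -0.32, -0.25, -0.40 and -0.40 in PXDDE. All DDE arrays lay far above the rest, which overlapped. Gadd45b rose by 1.42 ± 0.05 (2.68-fold, adjusted p = 8.47e-10) in DDE against control and fell by 1.44 ± 0.05 (2.71-fold, adjusted p = 7.64e-10) in PXDDE against DDE. Its level in PXDDE differed from control by -0.02 ± 0.05 (adjusted p = 0.781), and by 0.36 under median centring. The immediate early gene Jun rose by 0.84 ± 0.09 in DDE against control (adjusted p = 1.37e-05), and Igfbp1, a hepatocyte gene of regeneration and fasting, fell by 1.11 ± 0.04 (adjusted p = 3.28e-09).

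**Figure D5:**
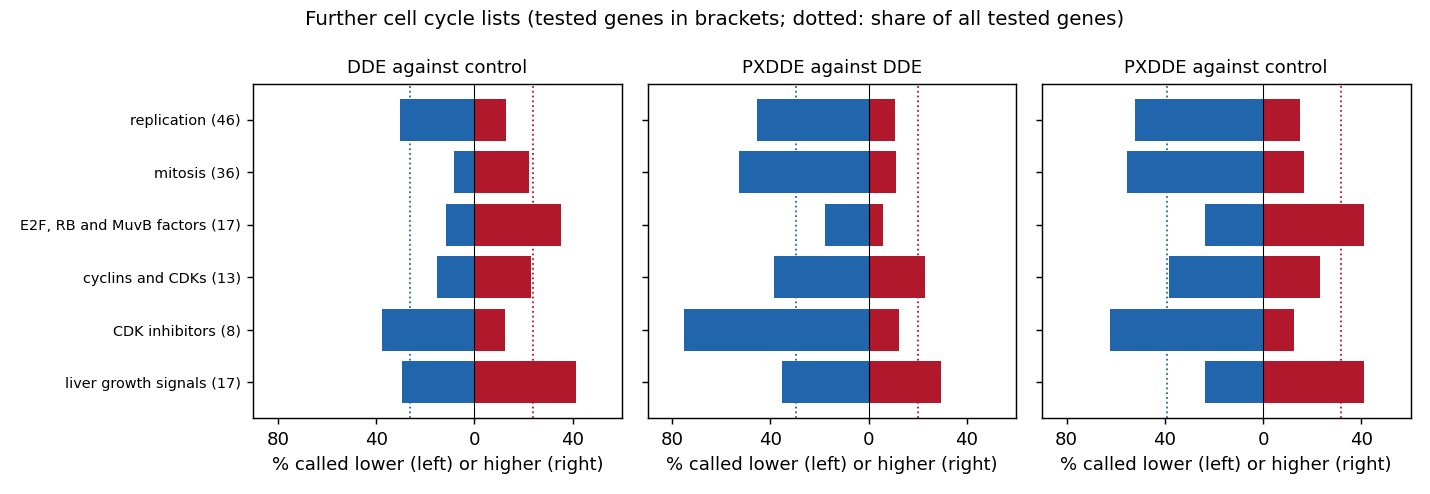
Percentage of the tested genes of 6 further cell cycle and growth lists (number tested in brackets) called lower (blue, to the left) or higher (red, to the right) in each comparison; dotted lines mark the share of all tested genes. In PXDDE against DDE 52.8% of the mitosis list and 75% of the 8 CDK inhibitors were called lower, against 29.7% of all genes.

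Many markers of blood and immune cells fell between DDE and PXDDE, where 29.7% of all genes fell and 20.2% rose. Of 9 tested neutrophil and neutrophil precursor markers 8 fell, among them Mpo (by 0.84, adjusted p = 1.51e-07) and Elane (by 0.48, adjusted p = 4.20e-05), which are made in dividing precursors. Their mean log2 level over 10 genes was -0.78 to -0.62 in DDE and -1.91 to -1.78 in PXDDE. Of 8 tested erythroid markers 5 fell and 1 rose, with a mean of 0.36 to 0.43 in DDE and -0.21 to -0.05 in PXDDE. Kupffer cell markers fell in 8 of 10, with means of 1.36 to 1.43 and 1.05 to 1.1. Of 7 tested markers of T and NK cells 5 fell, with means of -1.45 to -1.18 and -1.80 to -1.69 over 9 genes. Of 9 hepatocyte markers 6 fell and 0 rose (8.48 to 8.51 and 8.31 to 8.42), and of 8 endothelial markers 1 fell and 2 rose. Under median centring 0 of either fell, and 1 and 5 rose, where 17.6% of all genes fell and 34.7% rose. B and plasma cell markers fell in 3 of 6 tested and skeletal muscle markers in 7 of 8. The 8 adrenal cortex and 10 pancreatic acinar markers all rose, with median log2 changes of 5.44 and 2.52. In DDE against control, where 7 members rose and 1 fell, 8 of 10 Kupffer cell, 6 of 7 T and NK cell and 5 of 6 B and plasma cell markers fell, against 26.3% of all genes. There 4 of 9 neutrophil markers fell and 1 rose, and 3 of 8 erythroid markers rose and 1 fell, where 24% of all genes rose. Under median centring 1 of 10 Kupffer cell markers fell, against 11.1% of all genes. The part of any of these cells in the falls of Rrm2, the cyclins and the other members was not tested.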

How the data were processed

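Liver RNA of 12 samples, 4 in each group, was read on one-colour Agilent arrays of 62976 spots. The deposited scanner files hold intensities, here the processed signal of Feature Extraction 11.5.1.1, per the file headers. The deposited value table holds log2 values whose normalisation is not stated beside it; the submitters' processing notes name RMA and limma. Its columns correlated with the scanner signal at 0.995 to 0.996, and its direction and log2 scale follow from that; its centring is unknown.

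Here log2 of the processed signal was taken minus the 75th percentile of each array, without control and outlier spots. Mean levels over marker lists kept the outlier spots. Probes were kept where every array of some group was well above background, and the brightest kept probe stands for a gene. limma 3.58.1 in R 4.3.3 fitted 1 model with 9 residual degrees of freedom, with Benjamini-Hochberg adjustment over 18678 genes. The script was tested on simulated data. Replicate numbers did not pair samples. Probe values come from a fit over all kept probes. A further pathway gene is named if it is among the 4 smallest p-values called in its list and comparison, and Cdkn1a, Gadd45b and Ccnd2 are always named, except 1 gene that is not reported here; Mpo and Elane were chosen after their values were seen. The genes and lists were chosen with earlier results of these data known. 26 alternatives were tried, and the value of another probe of a gene was added after seeing the data.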

Additional observations from a re-analysis of the deposited data

Results flagged for a closer look

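Among 90 groups of 4 arrays (30 genes in 3 groups), 3 held an array far from the rest of its group, and chance gives about 1 in 20. Ccnb1 stood at -4.38 in PXDDE replicate 3, with the next PXDDE array at -4.02. Prc1 stood at -1.88 in DDE replicate 3, with the next DDE array at -2.62; without it the fall in PXDDE against DDE was not called. Foxm1 stood at -2.88 in DDE replicate 4, with the next DDE array at -3.46. All 3 values are log2 levels relative to the 75th percentile of the array, and the cause was not tested.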

How the results depend on the processing

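The count of members that fell in PXDDE against DDE was 12 to 18 under 26 alternatives, and the median stayed below 0 in each. With normexp and quantile normalisation, median centring or the deposited values 12 fell (40%), against 23.3%, 17.6% and 21.9% of all genes. With normexp 18 fell (60%), against 34.7%. The count that rose there went from 0 to 1 with normexp, median centring, the deposited values, the mean of a gene's probes and array weights; the median was -0.18 with normexp and quantile normalisation and -0.21 with median centring. In DDE against control, where 7 rose and 1 fell, 13 rose and 2 fell with quantile normalisation, 12 and 3 with both normexp and quantile, and 22 and 0 with median centring. These rises were 43.3%, 40% and 73.3%, against 25.6%, 25.4% and 48.3% of all genes. With the deposited values and with array weights 11 rose (36.7%), against 23.9% and 26.5% of all genes. With the mean of a gene's probes 2 fell (6.67%, against 27.1%). The median there was 0.23 with quantile normalisation, 0.36 with median centring and 0.23 with the deposited values. In PXDDE against control, where 3 rose and 14 fell, 5 rose and 9 fell with quantile normalisation, with or without normexp, 13 rose and 2 fell with median centring, and 5 rose with the deposited values. The 9 falls were 30%, against 32.9% of all genes with quantile normalisation and 33% with normexp added. Each 5 rises were 16.7%, against 37.7%, 37.8% and 36.8%. With median centring 43.3% rose and 6.67% fell, against 55.2% and 20.4%. The median there was -0.11, -0.086, 0.14 and -0.10 with quantile, normexp and quantile, median centring and the deposited values.

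Leaving out 1 array gave 4 to 9 rises, 1 to 1 fall and medians of 0.11 to 0.17 in DDE against control. It gave 0 to 1 rises, 13 to 17 falls and medians of -0.38 to -0.31 in PXDDE against DDE, and 1 to 4 rises, 11 to 15 falls and medians of -0.26 to -0.16 in PXDDE against control. Under median centring the sign turned in PXDDE against control for Aurka (0.037), Birc5 (0.36), Ccnb2 (0.035), Ccnd1 (0.22), Ccne1 (0.22), Mcm4 (0.18), Mcm5 (0.34), Mcm7 (0.36), Pcna (0.074), Plk1 (0.031), Ccnd2 (0.35) and Gadd45b (0.36), and in DDE against control for Mcm4 (0.20), Mcm6 (0.22) and Cdkn2c (0.028). In PXDDE against control it also turned for Nusap1 with normexp and quantile normalisation (0.016) and for Top2a on its other probe (0.10), and E2f7 turned as the mean of its probes (0.37 against DDE and 0.19 against control). The cause was not tested.

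Arrays with the same replicate number deviated with correlations of -0.37 to 0.13 over 12 pairs, so the numbers do not pair the samples. With the replicate number as a block, 6 rose (20%, against 22.3% of all genes) and 1 fell (3.33%, against 24.8%) in DDE against control. In PXDDE against DDE 0 rose (against 18.4%) and 14 fell (46.7%, against 27.6%). In PXDDE against control 4 rose (13.3%, against 30.8%) and 14 fell (46.7%, against 38.5%). The medians of the members in these comparisons were 0.13, -0.35 and -0.23. Signal over background limits Top2a, Nusap1, Aurkb and Cdca8, whose dim arrays give only a bound.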
